A study of Mus musculus with 23 samples.

Results

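Serpina3n, A2m, Lcn2, Saa3, Hp and Cp encode secreted proteins of the acute phase response, and their RNA was followed in mouse testis and in testis explants grown in vitro. These 6 genes, of 27466 in the count table, were selected on the levels described here, their counts scaled to the library total (CPM) over the in vivo ages and the culture days, so those levels are given as a description and without a test. All samples were wild-type testis of CD-1 mice, an outbred stock. Testes of 6.5 days postpartum (dpp) were used fresh, or were thawed from storage by controlled slow freezing, here CSF. Older testes were all fresh, with ages of 10.5 dpp, of 22.5 dpp and of 36.5 dpp. Fragments of 6.5 dpp testes were cultured in α-MEM with serum replacement, gentamicin and retinol and were collected from fresh tissue after 4, 16 and 30 days (D4, D16, D30) and from CSF tissue after 30 days. D4 matches 10.5 dpp in age, D16 matches 22.5 dpp and D30 matches 36.5 dpp. Explants were pooled for each replicate, and their necrotic centre had been cut away before RNA extraction.

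The acute phase response is the change in plasma proteins that follows injury or infection. Cytokines of the interleukin 6 family, interleukin 1 and tumour necrosis factor act on their receptors and, through STAT3, C/EBP and NF-kB transcription factors, raise the output of the positive acute phase proteins, above all in the liver. Many other tissues can express some of these genes. Of the 6 genes, Serpina3n and A2m encode protease inhibitors, Lcn2 encodes a carrier of iron-binding siderophores, Hp encodes haptoglobin, which binds free haemoglobin, Cp encodes the copper-carrying ferroxidase ceruloplasmin, and Saa3 encodes an inducible serum amyloid A apolipoprotein. In the testis, Sertoli cells are known to secrete iron and copper transport proteins and protease inhibitors into the tubules.

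Serpina3n and Saa3 had the largest excess over age-matched testis in every culture stage but 1 (D16, where A2m came before Serpina3n), and the stretches before their transcription starts are shown for that reason. They were taken from the RefSeq promoter windows of GRCm38.p6, which run from 250 bases before to 50 after a start, without the bases that lie in an annotated exon of the gene. The Serpina3n stretch is chr12:104406458-104406645 on the plus strand, directly before the gene. The transcript start of its window lies further on, at 104406708. The Saa3 stretch is chr7:46715701-46715926 on the minus strand, in front of the RefSeq start at 46715676 and inside an intron of a longer annotated transcript. Capitals mark the motif matches, and both stretches read 5′ to 3′ along the gene.
Serpina3n: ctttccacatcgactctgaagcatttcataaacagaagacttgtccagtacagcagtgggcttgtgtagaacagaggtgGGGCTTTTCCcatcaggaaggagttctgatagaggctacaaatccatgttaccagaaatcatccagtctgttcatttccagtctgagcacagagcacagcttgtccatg
Saa3: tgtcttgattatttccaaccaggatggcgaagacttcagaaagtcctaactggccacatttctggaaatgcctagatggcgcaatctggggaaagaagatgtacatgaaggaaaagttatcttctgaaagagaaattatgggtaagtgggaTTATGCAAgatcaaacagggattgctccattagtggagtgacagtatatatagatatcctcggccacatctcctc

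Motifs for the 3 factors named above were searched on both strands, as TTCNNNGAA for STAT, TTGCNNAA for C/EBP and for NF-kB as GGG and TTCC with any 3 bases between them. The windows of 4 of the 6 genes were given, 5 windows in all. The Serpina3n window held an NF-kB match that begins 171 bases before the transcript start at 104406708, not before the end of the printed stretch. The Saa3 window held a C/EBP match that begins 99 bases before its start at 46715676. The Lcn2 window held a C/EBP match (TTGCTCAA, 216 bases before the start) and so did 1 of the Cp windows (TTTTGCAA, 70 bases before). No member window held the STAT letters. Among 32851 windows of all genes, 8.3% held the STAT motif, 10.8% the C/EBP motif and 5.56% the NF-kB motif, so these matches are common, and whether a factor binds them was not measured.

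In RefSeq annotation on GRCm38, Serpina3n lies at chr12:104406646-104414334 and A2m at chr6:121636165-121679238, both on the plus strand, as does Cp at chr3:19956933-20009750. Lcn2 lies at chr2:32384637-32387739, Saa3 at chr7:46711998-46719615 and Hp at chr8:109575128-109579172, all on the minus strand. The values below cover the exons of each gene.

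The deposited values were read counts per gene. Each library had between 28351546 and 69029328 counts on genes, so a gene at 1 CPM had more than 28 counts. Of the 23 columns, 6.5 dpp fresh replicates 2 and 3 were identical and were used as 1 library. The library labelled 6.5 dpp fresh replicate 1 resembled cultured tissue (Spearman 0.985 with D16 replicate 1 and 0.928 with 6.5 dpp fresh replicate 2, over genes), so it was kept out of the groups and its values are given apart. The groups were 6.5 dpp with 4 libraries (1 fresh, 3 CSF), 10.5 and 22.5 dpp with 3 each, 36.5 dpp with 2, D4 with 3, D16 with 2 and D30 with 4 (3 fresh, 1 CSF). In such whole-tissue RNA, fewer cells of a type and less RNA per cell cannot be told apart.

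Serpina3n, an inhibitor of serine proteases, was a low transcript of the young testis and an abundant one of every explant. In vivo it was at 0.981, 0.478, 0.73 and 1.16 CPM at 6.5 dpp and at 0.651, 1.11 and 0.837 CPM at 10.5 dpp. It was at 6.15, 15.2 and 7.08 CPM at 22.5 dpp and at 4.31 and 3.34 CPM at 36.5 dpp. In culture it was at 127, 177 and 165 CPM at D4, at 75.1 and 123 CPM at D16, and at 156, 143, 228 and 149 CPM at D30. Every cultured library stood above every in vivo library, and 22.5 dpp replicate 2 was the highest in vivo value. The mean was 181-fold higher at D4 than at 10.5 dpp, 10.4-fold higher at D16 than at 22.5 dpp and 44.2-fold higher at D30 than at 36.5 dpp. The fitted log2 fold changes were 7.59 ± 0.42 (SE), 3.25 ± 0.36 and 4.82 ± 0.43. The order of the means ran D30, D4, D16, 22.5, 36.5, 10.5 and 6.5 dpp, and in it D30 overlapped with D4 and 10.5 dpp with 6.5 dpp.

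A2m, the broad-range protease trap alpha-2-macroglobulin, was lower at each later age in vivo up to 22.5 dpp and highest at the start of culture. It was at 2.17 to 3.14 CPM at 6.5 dpp, at 1.5 to 1.87 CPM at 10.5 dpp, at 0.461 to 0.898 CPM at 22.5 dpp and at 0.772 and 0.952 CPM at 36.5 dpp. At D4 it was at 38.1, 40.6 and 31.5 CPM, at D16 at 9.0 and 10.7 CPM, and at D30 at 14.2, 10.1, 19.3 and 9.17 CPM. A2m thus stood highest at D4, above all D16 and D30 libraries, whereas D16 and D30 overlapped. The mean was 21.6-fold higher at D4, 15.1-fold higher at D16 and 15.3-fold higher at D30 than in testis of the same age. The fitted log2 fold changes were 4.52 ± 0.32, 3.74 ± 0.34 and 3.28 ± 0.36.

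Saa3, the serum amyloid A gene that is expressed outside the liver, was close to the limit of counting in vivo. It had 3 to 8 counts per library at 6.5 dpp. The 10.5 dpp libraries had 2 to 12 counts, those of 22.5 dpp 6 to 23, and the 36.5 dpp libraries 10 and 11, which is at most 0.505 CPM. In culture it was at 8.27, 12.3 and 12.1 CPM at D4, at 24.5 and 11.3 CPM at D16, and at 21.3, 43.7, 27.5 and 69.9 CPM at D30, where the CSF library was the highest. The cultured libraries all stood above the in vivo ones, and neighbouring culture stages overlapped. The ratio of means was 84.6 at D4, 49.2 at D16 and 140 at D30, with fitted log2 fold changes of 6.38 ± 0.57, 5.45 ± 0.54 and 6.48 ± 0.66. The low in vivo counts leave these ratios less certain than those of Serpina3n.

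Lcn2, also called lipocalin 2, was the gene with the widest range over the in vivo ages. It was at 0.437 to 0.705 CPM at 6.5 dpp and at 0.651 to 0.751 CPM at 10.5 dpp, then at 8.21, 10.4 and 9.29 CPM at 22.5 dpp and at 307 and 252 CPM at 36.5 dpp. In culture it was at 4.64, 6.79 and 8.30 CPM at D4, at 15.3 and 8.26 CPM at D16 and at 118, 145, 101 and 109 CPM at D30. Explants were therefore 9.59-fold above testis of the same age at D4, overlapped with it at D16, and at D30 were all below it. The fitted log2 fold changes were 3.35 ± 0.28, 0.19 ± 0.27 and -1.87 ± 0.25. Between D16 and D30 the mean was 10.0-fold higher, and between 22.5 and 36.5 dpp it was 30.0-fold higher.

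Hp was a low transcript in every group. It was at 0.0705 to 0.414 CPM at 6.5 dpp, at 0.269 to 0.509 CPM at 10.5 dpp, at 0.614 to 0.822 CPM at 22.5 dpp and at 0.178 and 0.309 CPM at 36.5 dpp, with 2 to 29 counts per library. It was at 2.04, 3.12 and 2.93 CPM at D4, at 1.16 and 1.33 CPM at D16 and at 2.87, 2.36, 5.14 and 2.81 CPM at D30. Each culture stage stood above testis of the same age without overlap, by 6.92-fold, 1.70-fold and 13.5-fold in the means. The fitted log2 fold changes were 2.86 ± 0.40, 0.60 ± 0.42 and 3.08 ± 0.49.

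Cp differed from the other genes in that it was already well expressed in the immature testis. It was at 49.9 to 59.8 CPM at 6.5 dpp, at 48.6 to 62.9 CPM at 10.5 dpp and at 48.1, 80.9 and 43.2 CPM at 22.5 dpp, but at 15.2 and 11.7 CPM at 36.5 dpp. The cultured libraries were at 75.2 to 89.0 CPM at D4, 37.2 and 55.0 CPM at D16, and 64.1 to 89.0 CPM at D30. Explants were above testis of the same age at D4 by 1.51-fold and at D30 by 5.49-fold, while D16 overlapped with 22.5 dpp. The fitted log2 fold changes were 0.68 ± 0.20, -0.46 ± 0.22 and 1.81 ± 0.23. Cp overlaps Hps3 on the opposite strand at its 3′ side, and the strand setting of the counting is not given in the sources used here, so reads of the shared bases may count for either gene.

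**Figure D1:**
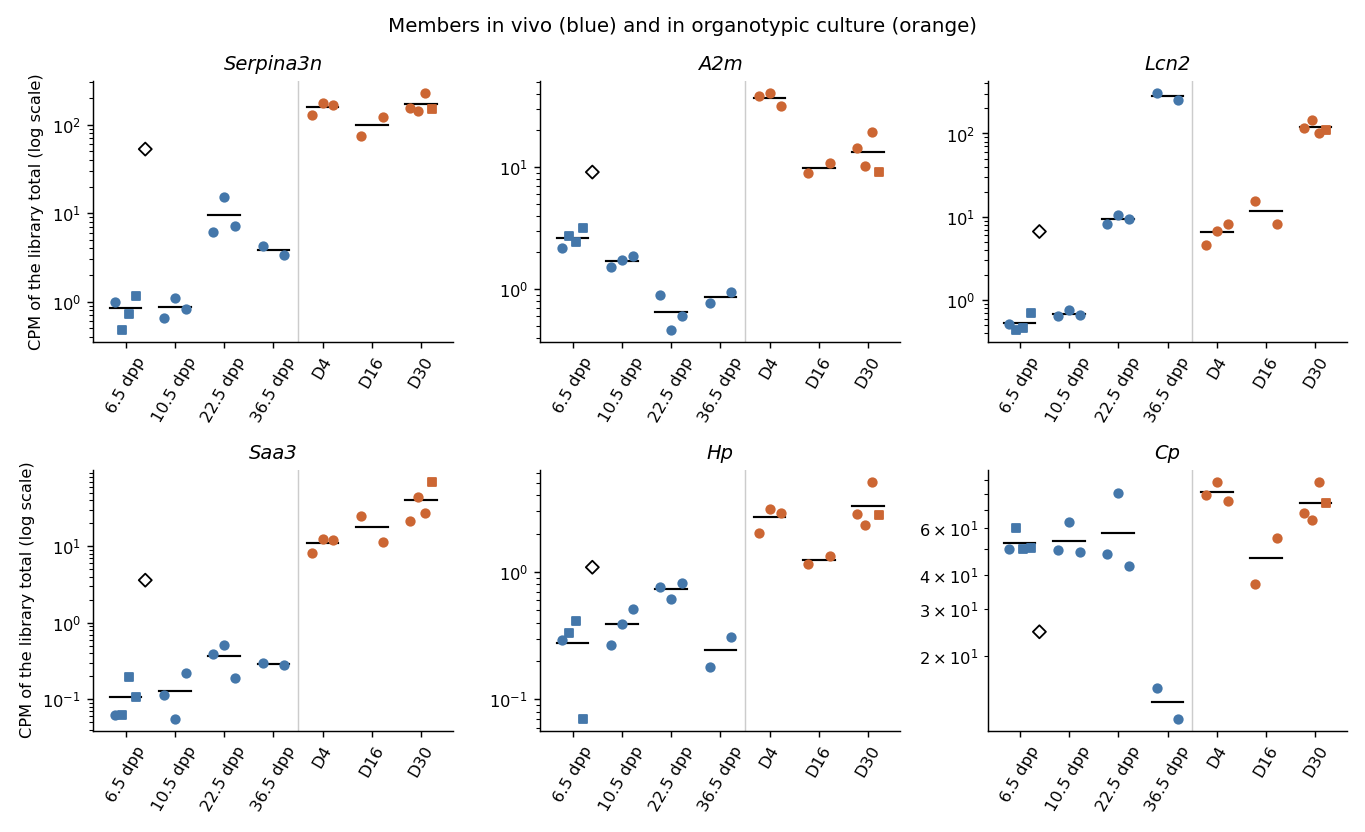
CPM (log scale) of the 6 genes in each library, in vivo in blue and in culture in orange, with circles for fresh tissue, squares for CSF tissue and a black bar for the group mean. The open diamond beside 6.5 dpp is the library labelled 6.5 dpp fresh replicate 1, which is in no group. For Serpina3n, A2m, Saa3 and Hp all cultured libraries sit above all in vivo libraries of the groups.

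For a rough comparison between genes, CPM was divided by the joint length of all GENCODE exons of the gene, over all its transcripts. This length can exceed that of the transcript in use, which was not measured, so the order of the genes depends on it. On this scale of CPM per kilobase, Cp led at 6.5 and 10.5 dpp with mean levels of 5.49 and 5.62, and the other 5 genes were at 0.42 or below. At 36.5 dpp Lcn2 led with a mean of 107 CPM per kilobase, and Serpina3n was at 1.85. At D4 Serpina3n led with 75.8 CPM per kilobase, ahead of Cp at 8.49, A2m at 5.23 and Saa3 at 4.18. At D30 Serpina3n was at 82.0, Lcn2 at 45.0 and Saa3 at 15.6 CPM per kilobase, with Cp at 7.72, Hp at 2.05 and A2m at 1.88.

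**Figure D2:**
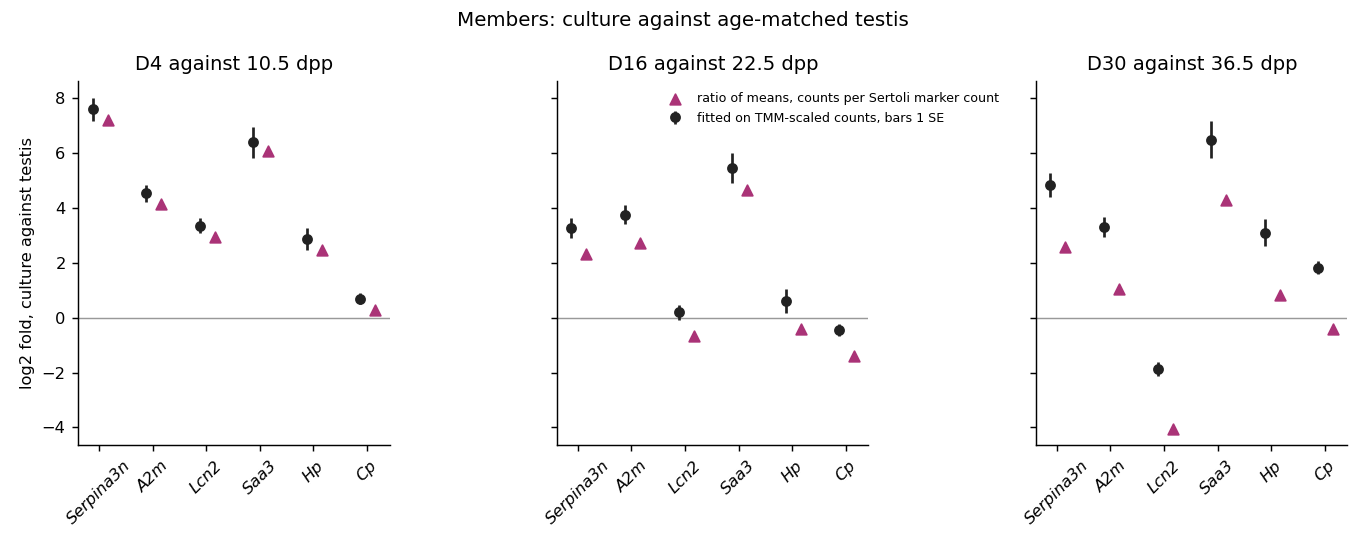
Log2 fold of each gene in culture against testis of the same age. Circles with bars are the fitted values with 1 SE on TMM-scaled counts, triangles are ratios of means of counts per Sertoli marker count, and Lcn2 is the only gene whose fitted value lies below 0 at D30.

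Counted together, all 6 genes were above testis of the same age at D4 without overlap of the libraries, 4 at D16 (Serpina3n, A2m, Saa3, Hp) and 5 at D30, where Lcn2 was lower. Of all 19255 genes tested, 17.3% were higher without overlap at D4, 29.2% at D16 and 47.6% at D30, and 25.2% were lower at D30. The median fitted log2 fold change of the 6 genes was 3.93 at D4, 1.93 at D16 and 3.18 at D30, beside medians of -0.01, -0.08 and -0.03 over all genes tested. Since these contrasts chose the genes, nothing follows from the counts. Against the 6.5 dpp tissue from which the explants were cut, all 6 genes were also higher at D4 without overlap, as were 16.5% of all genes.

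The tissue itself changed between the groups being compared. The summed level of 6 Sertoli cell markers was 1565 to 1679 CPM at 10.5 dpp and 1862 to 2185 CPM at D4, but 602 to 956 against 1304 to 1899 CPM at 22.5 dpp and D16, and 234 to 237 against 1399 to 2357 CPM at 36.5 dpp and D30. Germ cell markers were at 14785 and 18541 CPM in the 2 libraries of 36.5 dpp testis, an age with many spermatids, and at 1019 to 2779 CPM at D30. When each count was divided by the summed Sertoli marker count of its library, 5 genes stayed higher at D4 without overlap and Cp overlapped. On that scale 3 were higher at D16 (Serpina3n, A2m, Saa3) with Cp lower, and 4 were higher at D30 (the same 3 and Hp) with Lcn2 and Cp lower. Of all genes tested, 7.67%, 5.33% and 2.92% were higher at D4, D16 and D30 on that scale, and 62.0% and 82.4% were lower at D16 and D30. The log2 ratio relative to the Sertoli markers was 7.19, 2.32 and 2.57 for Serpina3n, 6.07, 4.66 and 4.28 for Saa3, and 4.12, 2.71 and 1.04 for A2m. For Cp it was 0.29, -1.41 and -0.42, so the direction of Cp at D30 depended on the scale, and for Hp at D16 it was -0.40.

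Along culture, 4 of the genes were lower at D16 than at D4 without overlap, as were 27.8% of all genes. These were A2m (3.72-fold lower), Hp (2.17-fold), Cp (1.76-fold) and Serpina3n (1.58-fold). From D16 to D30, 4 were higher without overlap, as were 8.12% of all genes. They were Lcn2 (10.0-fold), Hp (2.65-fold), Serpina3n (1.71-fold) and Cp (1.60-fold). The ranges of A2m at D16 and D30 overlapped, those of Saa3 overlapped at both steps, and those of Lcn2 overlapped at D4 and D16.

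Freezing was not used to choose the genes and was tested. Frozen against fresh tissue was a term added to the 7 stage groups in edgeR, with Benjamini-Hochberg adjustment over all 19255 genes tested. None of the 6 genes passed an adjusted p of 0.05 with edgeR or DESeq2, and of all genes 0.0% passed with edgeR (4 genes with DESeq2). Before adjustment 1 of the 6 genes, and 1261 of all genes, had a p below 0.05 with edgeR. That gene was Saa3, with a log2 fold change of 1.10 ± 0.43 (SE) and an adjusted p of 0.648 by edgeR's quasi-likelihood test. For the other 5 genes the log2 fold change lay between -0.28 and 0.05, with standard errors of 0.20 to 0.41. The test rests on 4 frozen libraries, only 1 of which was cultured, and on 1 fresh library at 6.5 dpp. It therefore leaves room for changes larger than those standard errors.

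Genes of the response other than the 6 were taken from 8 lists by role, 101 genes in all, of which 83 passed the filter on low counts. They were tested with edgeR's quasi-likelihood test, with an adjusted p under 0.05 as the threshold, and the lists were written with earlier results of these data known. At D4 against 10.5 dpp 28 of the 83 were higher and 2 lower (all genes: 4.92% higher, 3.18% lower). At D16 against 22.5 dpp 26 were higher and 4 lower (all genes: 14.0% and 11.8%). At D30 against 36.5 dpp 48 were higher and 8 lower (all genes: 32.4% and 35.0%). Without D16 replicate 2, the D16 comparison had 17 higher and 1 lower. The median log2 fold change over the 83 genes was 0.47, 0.49 and 1.36 at the 3 stages. The summed Sertoli markers were themselves higher in culture, by log2 0.32, 1.11 and 2.90. The list genes were not divided by them, so the part of the changing testis in these folds was not tested.

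The ligands were scarce. Il6, which encodes the leading inducer of the response, had 74 counts over the 4 D30 libraries (0.0504 to 1.51 CPM) and none at 36.5 dpp, which made it at least 5.58-fold higher against a floor of 3 counts per library. D30 CSF replicate 1 held 60 of these counts, and without it the bound was 1.40-fold (14 counts). The call at D30 was lost without either of the 36.5 dpp libraries. At D4 Il6 was at 0.246 to 0.312 CPM against 0 to 0.0278 CPM at 10.5 dpp, with an adjusted p of 0.074 by edgeR's quasi-likelihood test. Lif, an interleukin 6 family cytokine, rose at all 3 stages, by log2 1.17 ± 0.29, 1.69 ± 0.32 and 3.60 ± 0.39, and its D4 call was lost without 10.5 dpp replicate 1 or 3 or D4 replicate 1 or 2, and its D16 call without D16 replicate 2. Tnf, encoding tumour necrosis factor, rose at D16 and D30 from almost no counts to 0.459 to 1.16 CPM. Il1a, encoding interleukin 1 alpha, rose at D4 by 1.88 ± 0.35. Osm, encoding oncostatin M, fell at D4 by 2.28 ± 0.61, from 0.127 to 0.389 CPM to 0.0435 to 0.048 CPM, a call lost without D4 replicate 1, 2 or 3 or 10.5 dpp replicate 1 or 2. At D30 it had 26 counts against 0 at 36.5 dpp, at least 1.95-fold higher. Il11 rose at D4 by 1.43 ± 0.43, a call lost in 20 alternatives, and fell at D30 by 3.56 ± 0.40 on the log2 scale, from 9.21 and 13.3 CPM at 36.5 dpp to 0.982 to 1.75 CPM. Il1b, encoding interleukin 1 beta, passed at no stage, with adjusted p values of 0.909, 0.251 and 0.0545 in that edgeR test.

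The receptors that passed were all higher in culture. Osmr, the oncostatin M receptor, rose at all 3 stages, from 5.90 to 7.04 CPM at 10.5 dpp to 21.7 to 31.0 CPM at D4 (log2 2.17 ± 0.23), and by log2 1.35 ± 0.25 at D16 and 2.05 ± 0.27 at D30. The D16 call of Osmr was lost in a fit of the compared groups only. Il6st, which encodes gp130, the signalling chain shared by these cytokines, and Il6ra, which encodes the interleukin 6 receptor, passed at D30 only, with log2 fold changes of 2.53 ± 0.32 and 1.30 ± 0.35, and the call of Il6ra was lost without 36.5 dpp replicate 1. In counts, 3 of 9 receptor genes rose at D4, 2 at D16 and 7 at D30, and none fell.

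Among 10 kinases and transcription factors, 4 rose at D4, 4 at D16 and 6 at D30, and none fell. Stat3 rose from 117 to 119 CPM at 10.5 dpp to 234 to 268 CPM at D4 (log2 1.2 ± 0.22). Nfkbiz, whose product is an NF-kB cofactor of secondary response genes, rose at D4 by 1.47 ± 0.19 and at D16 by 0.89 ± 0.21. Its D16 call was lost in a fit of the compared groups only and with the library labelled 6.5 dpp fresh replicate 1. Cebpd rose at D4 by 1.77 ± 0.34 and at D30 by 1.02 ± 0.37, and Cebpb at D16 by 1.90 ± 0.51. The D30 call of Cebpd was lost with DESeq2 or RLE factors, and without 36.5 dpp replicate 2 or D30 CSF replicate 1. The call of Cebpb was lost in a fit of the compared groups only, and without 22.5 dpp replicate 1 or D16 replicate 2. Socs3, the feedback inhibitor that STAT3 induces, rose at every stage, from 10.6 to 12.1 CPM to 30.3 to 40.8 CPM at D4 (log2 1.78 ± 0.22), by 2.06 ± 0.24 at D16 and by 3.92 ± 0.29 at D30. It was the only one of 6 inhibitor genes that passed at D4, against 3 at D16 and 5 at D30.

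**Figure D3:**
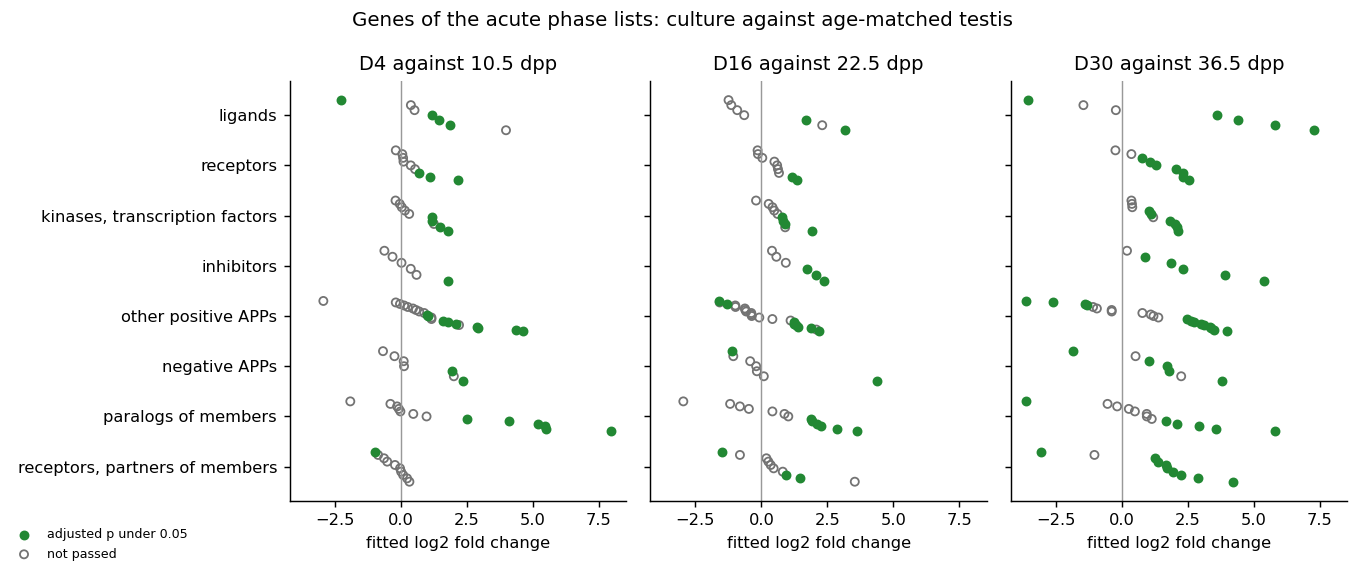
Fitted log2 fold changes (culture against testis of the same age) of the 83 tested genes of the 8 lists, each point a gene, filled where the adjusted p was under 0.05. APPs stands for acute phase proteins, and the filled points of the receptor, kinase and inhibitor lists all lie to the right of 0.

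Of 28 other positive acute phase proteins listed, 21 were tested, 9 rose at D4, 6 at D16 and 9 at D30, and 0, 2 and 4 fell. C3, the central complement component, rose from 3.11 to 3.55 CPM at 10.5 dpp to 59.0 to 69.3 CPM at D4 (log2 4.38 ± 0.29), by 1.23 ± 0.28 at D16 and by 3.39 ± 0.32 at D30, where it was at 131 to 237 CPM, and its D16 call was lost without D16 replicate 2. Timp1, an inhibitor of metalloproteases, rose at all 3 stages by 2.91 ± 0.28, 1.87 ± 0.29 and 3.11 ± 0.33, as did Serping1, the C1 inhibitor, by 0.99 ± 0.17, 1.23 ± 0.18 and 3.47 ± 0.21. Cd14, the co-receptor of bacterial lipopolysaccharide, also rose at all 3 stages, to 20.3 to 54.5 CPM at D30. Itih4, an inter-alpha-trypsin inhibitor heavy chain, rose at D4 by 1.59 ± 0.39, a call lost without 10.5 dpp replicate 1 or 3 or D4 replicate 2, and at D30 by 3.98 ± 0.58. Hpx, encoding the haem carrier hemopexin, and Itih3 rose at D30 by 2.98 ± 0.70 and 2.62 ± 0.44, and both were named after their values were seen. Lrg1, a leucine-rich glycoprotein, rose at D4 by 2.09 ± 0.40 and fell at D16 by 1.61 ± 0.39. Saa1, the liver serum amyloid A next to Saa3, was at 0.192 to 0.275 CPM at D4 and 0.111 to 0.346 CPM at 10.5 dpp and passed at no stage (adjusted p 1.00, 0.513 and 0.117 by edgeR). Saa2 had at most 14 counts and Orm1 at most 8 counts in any library, and neither passed the filter. The fibrinogen genes Fgb and Fgg fell at D30, by 3.64 ± 0.83 and 1.31 ± 0.36, Fgb from 1.36 to 1.46 CPM, and the call of Fgg was lost without 36.5 dpp replicate 1.

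The negative acute phase proteins, which drop in plasma during the response, did not move together. Trf, encoding the iron carrier transferrin, rose from 16.9 to 21.2 CPM at 10.5 dpp to 59.6 to 77.4 CPM at D4 (log2 1.92 ± 0.19) and at D30 by 1.80 ± 0.21, with 0.09 ± 0.20 at D16 (adjusted p 0.765, edgeR). Ahsg, encoding fetuin-A, fell at D16 by 1.13 ± 0.29, a call lost without either D16 library, and rose at D30 by 1.70 ± 0.31. Alb, encoding albumin, rose at D16 and D30 but only to 0.435 to 1.86 CPM. Of the 7 genes of the list, 2, 1 and 4 rose at the 3 stages, and 0, 1 and 1 fell.

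Of 20 relatives of the 6 genes, 13 were tested, and 6 rose at D4, 6 at D16 and 5 at D30, when 1 fell. Among Serpina3 genes, Serpina3m rose at D4 from at most 0.0449 CPM to 5.46 to 7.05 CPM (log2 7.97 ± 0.84), Serpina3f from 0.135 to 0.218 CPM to 5.73 to 6.71 CPM (5.20 ± 0.49) and Serpina3g by 5.49 ± 0.60. The same 3 rose at D16, by 3.61 ± 0.64, 2.87 ± 0.46 and 1.87 ± 0.57, and at D30, by 5.78 ± 0.85, 3.57 ± 0.53 and 1.65 ± 0.56. The D16 call of Serpina3g was lost without 22.5 dpp replicate 1 or 3 or D16 replicate 2, and its D30 call without 36.5 dpp replicate 2 (log2 0.97). Of the stretches of 50 exon bases of Serpina3n, 6.9% occur also in other Serpina3 genes, these 3 included, and reads of such stretches cannot be assigned to 1 gene. For Saa3 4.15% of the stretches occur in other genes, for Cp 0.618%, in Hps3, and for A2m, Lcn2 and Hp 0.0%. Serpina3n made up 0.299% to 0.848% of the summed CPM of 10 Serpina3 genes at 6.5 dpp, 37.8% to 43.0% at D4 and 42.9% to 50.8% at D30. Serpina3a, named after its values were seen, made up 93.6% to 97.3% at 6.5 dpp and 33.6% to 40.2% at D30. Of the A2m relatives, Pzp was at 0.36 to 0.627 CPM at D4 and 0.222 to 0.746 CPM at 10.5 dpp and passed at no stage, and Mug1 was under the filter. Heph, the membrane-bound relative of Cp, rose at D16 by 1.91 ± 0.29 and at D30 by 2.09 ± 0.31, with 0.47 ± 0.26 at D4 (adjusted p 0.362, edgeR).

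Receptors and partners through which the proteins act numbered 13, of which 10 were tested. None rose at D4 and 1 fell, 2 rose at D16 and 8 at D30, and 1 fell at each of these. Slc22a17, encoding a receptor of lipocalin 2, was at 139 to 153 CPM at 10.5 dpp and 125 to 155 CPM at D4, and rose at D30 by 1.70 ± 0.31. Lrp2, encoding megalin, which takes up lipocalin 2, fell at D16 by 1.5 ± 0.43, a call lost without 22.5 dpp replicate 3 or either D16 library, and at D30 by 3.06 ± 0.36. Lrp1, which takes up complexes of alpha-2-macroglobulin and proteases, rose at D30 by 1.93 ± 0.53 (1.39 and not past the threshold without 36.5 dpp replicate 1) and was at 478 to 550 CPM at D4 and 428 to 506 CPM at 10.5 dpp. Cd163, the macrophage receptor of haptoglobin with haemoglobin, passed at no stage, while Hmox1, encoding the haem oxygenase that acts after it, rose at D16 by 0.94 ± 0.16 and at D30 by 1.25 ± 0.17. Slc40a1, the iron exporter ferroportin, for which ceruloplasmin oxidises iron, rose at D16 by 1.47 ± 0.32 and at D30 by 1.68 ± 0.33.

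Whether the culture effect on these genes differed between stages was tested as a difference of contrasts. The difference is signed, so a lower value can be a smaller rise, a change of direction or a stronger fall. The log2 effect was higher at D16 than at D4 for 4 of the 83 genes and lower for 12 (all genes: 5.26% and 4.36%). Without TMM scaling these counts were 8 and 9. Without 22.5 dpp replicate 2 it was higher for 10, without 22.5 dpp replicate 3 for 1, and without 10.5 dpp replicate 3 it was lower for 7. C4b, C3, Lrg1 and the 3 Serpina3 genes named above were among those with a lower effect at D16, C4b by 5.02 ± 0.56 and C3 by 3.15 ± 0.39. Lrg1 changed direction, from 2.09 at D4 to -1.61 at D16. The call of Serpina3f was lost in 11 alternatives and that of Serpina3m in 3. The in vivo level of C4b was 0.779 to 0.837 CPM at 10.5 dpp and 15.4 to 25.0 CPM at 22.5 dpp, and in culture 16.8 to 22 CPM at D4 and 17.2 to 19.4 CPM at D16. The log2 effect was higher at D30 than at D16 for 24 and lower for 1 (all genes: 11.5% and 8.63%). The lower one was Il11, whose effect at D30 was a fall (-3.56). Those that were higher included Stat3 by 1.53 ± 0.35, Il6st by 1.86 ± 0.42, Socs3 by 1.86 ± 0.35, C3 by 2.15 ± 0.40 and Serping1 by 2.25 ± 0.27. Ahsg, also higher, went from -1.13 at D16 to 1.70 at D30. Without D16 replicate 1 only 8 were higher and none lower, and Stat3 and Il6st were not among those 8. The summed Sertoli markers were themselves above testis of the same age, by log2 1.11 at D16 and 2.90 at D30. The list genes were not divided by them, and the part of the changing testis in these differences was not tested.

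Within culture, 37 of the 83 genes rose from 6.5 dpp to D4 and 2 fell (all genes: 10.8% and 10.1%). From D4 to D16 5 rose and 14 fell (all genes: 18.4% and 5.48%). From D16 to D30 3 rose and 1 fell (all genes: 1.46% and 0.332%). Without D16 replicate 1 the numbers from D4 to D16 were 2 and 2, and without D16 replicate 2 no gene passed from D16 to D30.

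Over the 21 libraries, the genes most like each member in log2 CPM were named from 15774 genes with a mean of at least 1 CPM. For Serpina3n they were Serpina3f (Pearson r 0.977), Serpina3m (0.976) and C3 (0.969), of which the first 2 share exon bases with it. For Saa3 they were Serpinb11 (0.970), Mmp12 (0.969) and Clca2 (0.963), and for A2m Maff (0.946), Ier3 (0.941) and Gpx3 (0.939). For Lcn2 they were Klk1b27 (0.966), Sult1e1 (0.966) and Klk1b21 (0.960), genes with their highest mean at 36.5 dpp, as Lcn2. For Hp they were Lzts1, St8sia2 and Gfod1 (0.951 to 0.938), and for Cp Crispld2, Zdhhc24 and Pip4p1 (0.948 to 0.933). Between the members, Serpina3n and Saa3 were at r 0.951 and Serpina3n and Hp at 0.899, whereas Lcn2 and Cp were at -0.291. The libraries share their stage and depth, so these correlations are descriptions of stage patterns.

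Other cell types known for these genes were checked by marker lists. Neutrophils, which store lipocalin 2 and haptoglobin in granules, had 8 markers with a summed level of 0.579 to 2.86 CPM over all groups, with S100a9 and Cxcr2 at 0 in all D16 and D30 libraries. Of the 4 tested, 1 was higher and 1 lower at D30 than at 36.5 dpp, and Camp was at 0.504 to 2.0 CPM at D30 and 0.0257 to 0.119 CPM at 36.5 dpp. Hepatocytes, the main source of acute phase proteins in the body, had 5 markers at 0.884 to 9.48 CPM in all groups but 36.5 dpp. There the sum was 52.7 and 63.9 CPM, nearly all of it Apoh (48.3 and 58.9 CPM), while Alb was at 0.0514 CPM or less. Macrophage markers, 7 genes, were at 131 to 172 CPM at 10.5 dpp and 33.5 to 38.8 CPM at D4, where 6 of the 7 fell. They were at 191 to 287 CPM at 22.5 dpp and 159 to 169 CPM at D16, where 1 of the 7 fell. At D30 they were at 202 to 277 CPM, where 5 of the 7 rose against 85.2 and 102 CPM at 36.5 dpp. Stromal fibroblast markers, 5 genes, were at 1887 to 2063 CPM at 10.5 dpp, 2629 to 3405 CPM at D4, 394 to 697 CPM at 22.5 dpp, 1292 to 1383 CPM at D16, 97.4 and 200.5 CPM at 36.5 dpp and 917 to 1450 CPM at D30. Endothelial markers, 4 genes, were at 179 to 200.4 CPM at 10.5 dpp and 219 to 240.0 CPM at D4, at 37.6 to 59.8 CPM at 22.5 dpp and 195 to 259 CPM at D16, and at 17.1 and 20 CPM at 36.5 dpp and 131 to 174 CPM at D30. The 4 genes did not all move with the sum, as 2 rose and 1 fell at D4. At D16 3 of them rose, and at D30 3 rose and 1 fell. Mesothelium markers, 3 genes, were at 2.2 to 7.8 CPM at the 3 later ages in vivo and at 13.7 to 36.6 CPM in culture. Nearly all of the sum in culture was Lrrn4 (13.2 to 36.2 CPM), while Msln was at 0.29 CPM or less and Upk3b at 0.46 CPM or less. Only 1 of the 3 genes rose at each stage. Leydig cell markers, 6 genes, were at 1571 and 1947 CPM at 36.5 dpp and 325 to 600.0 CPM at D30, where all 6 fell. Their part in the levels of the acute phase genes was not tested.

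**Figure D4:**
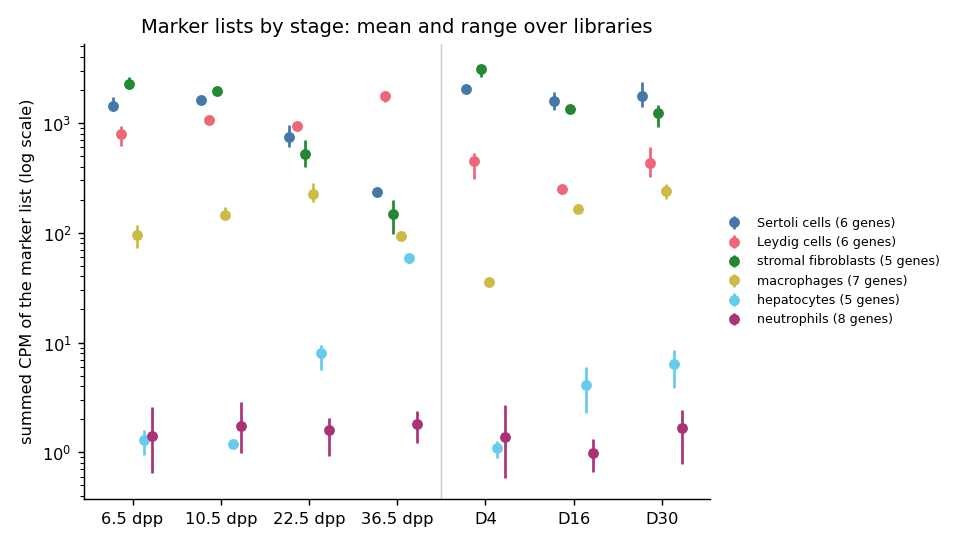
Summed CPM (log scale) of 6 marker lists by stage, with points for the mean and bars for the range over the libraries of a group. The macrophage sum dips to 33.5 to 38.8 CPM at D4, and the neutrophil sum stays at or below 2.86 CPM at every stage.

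The library labelled 6.5 dpp fresh replicate 1 stood on the side of the cultured libraries in 5 of the 6 genes. Serpina3n was at 53.0 CPM there, A2m at 9.09, Lcn2 at 6.65, Saa3 at 3.60 and Hp at 1.09 CPM, each above every other 6.5 dpp library. Cp was at 24.6 CPM, below all of them. With that library in the 6.5 dpp group, the mean of Serpina3n at 6.5 dpp was 11.3 ± 23.3 CPM (SD, n = 5), against 0.838 ± 0.299 CPM (SD, n = 4) without it.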

How the data were processed

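RNA of 23 libraries of whole CD-1 mouse testis or cultured testis explants was sequenced as 50-base single reads from a stranded poly(A) kit. The authors aligned the reads to GRCm38 with STAR 2.7.3a and counted them per gene with HTSeq 0.12.4, and the deposited values are raw counts in 1 table. The strand setting of the counting is not given in the sources used here. Rows without a gene symbol held 0.0207% of the counts and were left out. CPM was computed from each library total. The 6 genes and all gene lists were chosen with earlier results of these data known. The genes named from the lists were, by list, comparison and direction, the 2 with the largest fold among those that passed without overlap of the CPM, a set named whatever its values (Il6, Il1b, Tnf, Osm, Il6ra, Il6st, Osmr, Stat3, Cebpb, Cebpd, Nfkbiz, Socs3, Saa1, Saa2, Orm1, C3, Pzp, Mug1, Heph, Slc22a17, Lrp1, Cd163 and Slc40a1), marker genes, and the 3 genes most correlated with each member.

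Tests used edgeR 4.0.16 in R 4.3.3 (quasi-likelihood F test, TMM factors, filterByExpr) on 21 libraries in 7 stage groups, with Benjamini-Hochberg adjustment over 19255 genes and 0.05 as the threshold. The SE of a fitted log2 fold was its size divided by the square root of F. Log2 CPM for the correlations used a prior count of 2. DESeq2 1.42.0, RLE factors, library size only, no filter, a stricter threshold, fits to the compared groups or to fresh tissue, a replicate block and leaving out each library were the alternatives. A division by summed Sertoli marker counts was a further alternative for the 6 genes, and the non-overlap counts on TMM-scaled library sizes were added after seeing the data. The fit was tested on simulated data. Nothing in the labels says that replicates came from separate litters, so p-values measure the spread between these samples. Floors of 3 counts cover counting error only. Tables were made with pandas 2.3.3 and figures with matplotlib 3.10.9. The result for 1 named gene of the lists is not reported here, and it remains in the counts.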

Additional observations from a re-analysis of the deposited data

Results flagged for a closer look

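In the library labelled 6.5 dpp fresh replicate 1, which entered no comparison, 5 of the 6 genes stood above the highest of the other 6.5 dpp libraries. Serpina3n was at 53.0 CPM, A2m at 9.09 CPM, Lcn2 at 6.65 CPM, Saa3 at 3.60 CPM and Hp at 1.09 CPM.

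Among 12 groups of 4 libraries checked for a library far from the rest, 2 had one, and chance alone gives about 1 in 20. Serpina3n was at 228 CPM in D30 fresh replicate 3, above the other 3 D30 libraries, which were at 143 to 156 CPM. Cp was at 59.8 CPM in 6.5 dpp CSF replicate 1, above the other 3, which were at 49.9 to 50.4 CPM.

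The culture effect differed between D4 and D16 (adjusted p under 0.05, edgeR's quasi-likelihood test of the difference) for 13 of the named genes. On the log2 scale the difference was -5.02 for C4b, -4.36 for Serpina3m, -3.71 for Lrg1, -3.62 for Serpina3g and -3.15 for C3. It was -2.80 for Il1a, -2.79 for Serpina6, -2.33 for Serpina3f, -2.08 for Il11 and -1.83 for Trf. It was above 0 for Alb (4.29), Slc40a1 (1.70) and Heph (1.44). The call was lost in 20 alternatives for Il11, 14 for Serpina6, 11 for Serpina3f, 8 for Heph, 4 for Slc40a1 and 3 for Serpina3m.

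Between D16 and D30 it differed for the 17 named genes given here in the same test, without division by the Sertoli markers. The ligands were at 1.90 for Lif and -2.90 for Il11, and Osm was at 6.96, a fitted value with no counts at 36.5 dpp that is not a bound. Receptors and signalling genes were at 1.86 for Il6st, 1.13 for Tnfrsf1a, 1.71 for Tnfrsf1b, 1.32 for Jak2, 1.53 for Stat3 and 1.86 for Socs3. Acute phase proteins were at 2.88 for Itih4, 2.15 for C3, 2.25 for Serping1, 1.25 for Timp1, 1.71 for Trf and 2.82 for Ahsg. Slc22a17 was at 1.35 and Tlr2 at 2.60. The call was lost in 18 alternatives for Timp1, 5 for Slc22a17 and 3 each for Jak2 and Tnfrsf1a, and without D16 replicate 1 also for Lif, Il11, Il6st, Stat3, Itih4 and Tnfrsf1b.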

How the results depend on the processing

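Of 1080 refits of member folds, 1027 moved by less than the spread between replicates and 4 changed sign. Relative to the Sertoli markers these were Hp (-0.40) and Lcn2 (-0.68) at D16 and Cp at D30 (-0.42), and the 4th was Lcn2 at D16 without D16 replicate 1 (-0.35). On that scale 1 gene was lower at D16 and 2 at D30, and without D16 replicate 2 there was 1 lower at D16. Leaving out 1 library gave 4 to 5 higher and 0 to 1 lower at D16. The freezing folds, none past the threshold, changed sign for A2m (0.41) and Lcn2 (0.057) without D30 CSF replicate 1, Lcn2 (0.0013) without D30 fresh replicate 2, Hp (0.0065) without D30 fresh replicate 3, Cp (-0.029) without 6.5 dpp fresh replicate 2 and Saa3 (-1.37) with the library labelled 6.5 dpp fresh replicate 1. Without 1 library these folds ran from -0.70 to 0.41 for A2m, -0.21 to 0.057 for Lcn2, -0.34 to 0.0065 for Hp and -0.029 to 0.14 for Cp. The freezing count stayed at 0 in all 29 alternatives.

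Counts of pathway genes follow as higher and lower. At a log2 fold of 2 and adjusted p of 0.001 they were 9 and 0 at D4 against 10.5 dpp, 5 and 0 at D16 against 22.5 dpp, 27 and 2 at D30 against 36.5 dpp, 17 and 0 at D4 against 6.5 dpp, 0 and 0 from D4 to D16 and from D16 to D30, 0 and 3 for the stage difference D16 minus D4 and 2 and 0 for D30 minus D16. With the library labelled 6.5 dpp fresh replicate 1 they were 18 and 0, 16 and 1 at the first 2 stages, 21 and 0 at D4 against 6.5 dpp, 1 and 4 from D4 to D16, 0 and 0 from D16 to D30, and 1 and 1 for D16 minus D4. Fitted to the compared groups alone, 6 were lower at D4 against 10.5 dpp, 14 higher and 0 lower at D16 against 22.5 dpp, 1 lower at D4 against 6.5 dpp, and 0 and 0 from D16 to D30. In fresh tissue alone they were 24 and 0 at D4 against 6.5 dpp, 8 higher from D4 to D16, 5 and 0 from D16 to D30, and 3 lower for D30 minus D16. DESeq2 gave 4 lower at D4 against 6.5 dpp, 10 higher from D16 to D30 and 3 lower for D30 minus D16, and RLE factors also 3 lower there. With library size only, 8 were higher for D16 minus D4 and 38 for D30 minus D16, and the median of all genes at D30 against 36.5 dpp moved from -0.03 to 0.60. Without a filter 1 was lower at D4 against 10.5 dpp. Replicate numbers did not pair the samples (16 of 52 same-number pairs correlated over 0.1, median 0.0205), and with the replicate block 27 were higher and 1 lower at D4 against 10.5 dpp, 27 and 5 at D16 against 22.5 dpp, 50 and 10 at D30 against 36.5 dpp, 3 higher from D4 to D16 and 2 lower for D30 minus D16.

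Leaving out each library gave 21 to 30 higher and 0 to 3 lower at D4 against 10.5 dpp, 17 to 35 and 1 to 5 at D16 against 22.5 dpp, 43 to 53 and 6 to 9 at D30 against 36.5 dpp, and 31 to 39 and 0 to 3 at D4 against 6.5 dpp. It gave 2 to 7 and 2 to 17 from D4 to D16, 0 to 5 and 0 to 1 from D16 to D30, 1 to 10 and 7 to 13 for D16 minus D4, and 8 to 28 and 0 to 3 for D30 minus D16. Of 3408 refits of named pathway genes 3181 kept their call and 227 lost it, and the cause was not tested. With the library labelled 6.5 dpp fresh replicate 1, 37 of 119 calls were lost, and in fits to the compared groups alone 12 of 83. Depth limits Saa3 and Hp in vivo, and Il6 and Osm.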
